A study of Ovis aries with 8 samples.

Results

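The genes described here are 10 markers of T cells and other lymphocytes, measured in the perirenal fat of lambs: CD3D, CD3E, CD3G, CD2, CD4, CD8A, CD5, CD79A, PTPRC and CCL5. They were chosen by gene symbol in the array's platform annotation, and they are 10 of the 9155 genes that it names by a single symbol. Together they have 16 of the 24016 probe sets tested. A probe set is a group of short probes that together give 1 value, and where a gene had several, the brightest on average was taken for it. The tissue came from 4 NmatCpat (Callipyge) lambs and 4 NmatNpat (normal) lambs, with 1 array per lamb. NmatCpat lambs carry the Callipyge mutation on the chromosome from the sire and a normal allele from the dam, whereas NmatNpat lambs carry the normal allele on both. All 8 lambs were males of 12 weeks from a flock crossed from Dorset, Suffolk and Rambouillet sheep. The arrays carry bovine probes, so each value also depends on how well the sheep transcript matches the cattle sequence. Values are log2 intensities after quantile normalization, a unit of 1 is a 2-fold change, and differences are NmatCpat minus NmatNpat.

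T cells recognise antigen through a receptor whose variable chains carry no signal of their own. The CD3 chains (CD3D, CD3E and CD3G) sit beside them in the membrane and pass the signal inward, where the kinase LCK, held by the co-receptors CD4 and CD8, starts the cascade. Adipose tissue holds resident T cells, B cells and macrophages among its fat cells, and lymph nodes lie within fat depots. In whole tissue, fewer cells of a type and less RNA per cell cannot be told apart.

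The fat cell markers ADIPOQ, FABP4, LPL and CIDEC were in the brightest of 4 equal level classes of probe sets. ADIPOQ, the hormone adiponectin, read 13.0 to 13.3 in NmatCpat and 12.8 to 13.2 in NmatNpat. FABP4, the fatty acid carrier of fat cells, averaged 13.72 ± 0.03 in NmatCpat and 13.69 ± 0.04 in NmatNpat (SD, n = 4 each). The array of NmatNpat animal 1 stood apart. All 10 measured neuron markers were highest there, and their summed intensity was 2444 to 2964 in NmatCpat against 2224 to 26919 in NmatNpat. On the array of NmatCpat animal 4, 7 of 11 skeletal muscle markers, 7 of 19 pan-leukocyte genes and 7 of 13 macrophage and dendritic cell markers were highest. NmatNpat animal 1 was also highest for 7 of the 19 pan-leukocyte genes. The part of either array in the lymphocyte values was not tested, beyond the values without them given below.

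None of the 10 lymphocyte genes was called in limma, that is, had an unadjusted P no greater than 0.05 together with a change beyond 1.5-fold, the thresholds that the study used for these arrays. Over the whole array 3.93% of probe sets were called, 2.04% higher and 1.88% lower in NmatCpat. Counted by the brightest probe set of each gene, 266 of 9155 genes were called. The smallest P over all 16 probe sets was 0.0775, and every adjusted p was at least 0.983 (limma, Benjamini-Hochberg). No probe set of the array reached an adjusted p under 0.05, while 1118 had an unadjusted P of at most 0.05. On the brightest probe set, all 10 genes averaged lower in NmatCpat, with differences between -0.76 and -0.09 and a median of -0.29. The genotypes overlapped for every one of them. They did not overlap for 2.74% of all probe sets, or for 260 of the 9155 genes on the brightest probe set. At shares of that size, 0 of 10 does not set these genes apart. Over the whole array 50.7% of probe sets lay above 0 and the median difference was 0.01. Counted over all 16 probe sets, 4 lay above 0 and 12 below. The genes do not give 10 separate counts of direction, because they were read in the same 8 lambs.

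**Figure D1:**
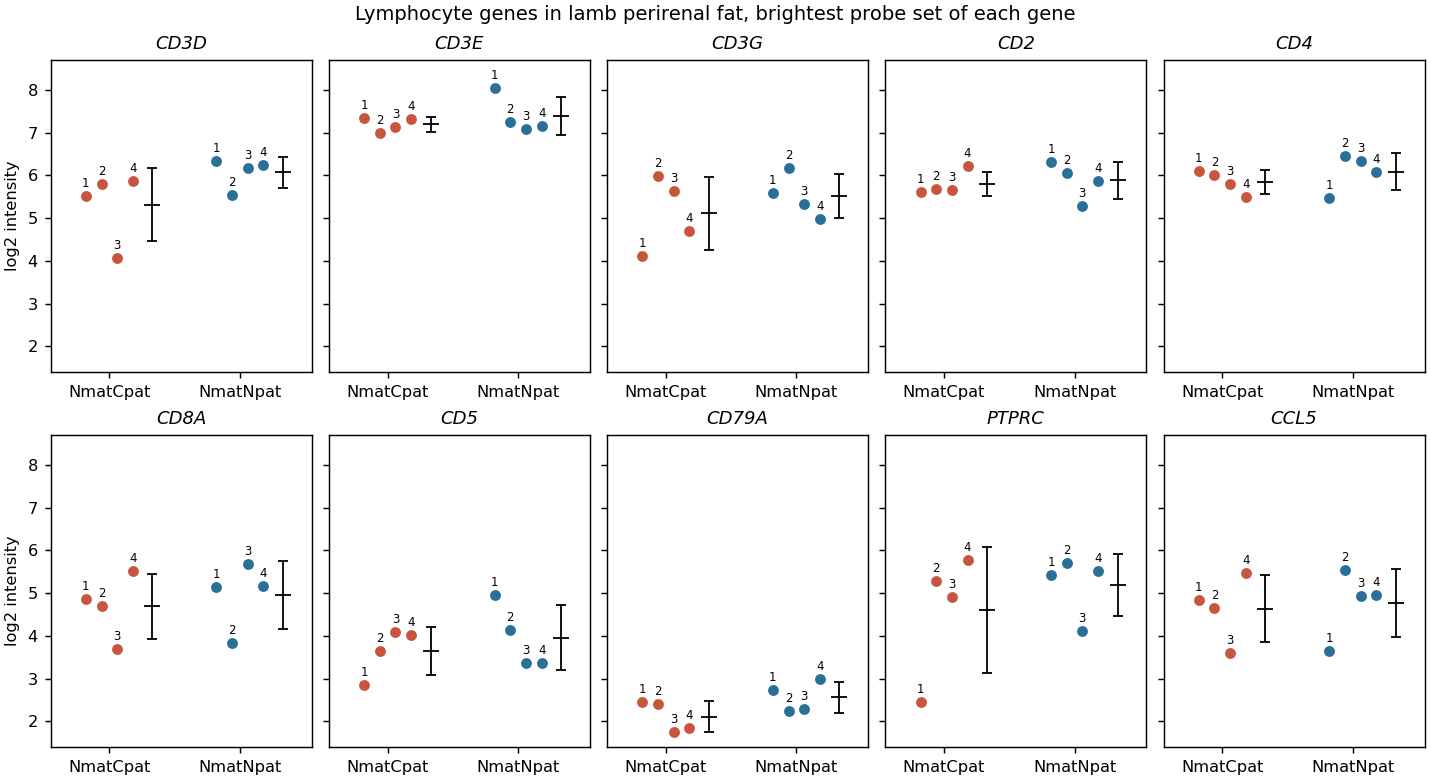
Log2 intensity of the brightest probe set of each of the 10 genes (vertical axis), with 1 point per lamb labelled by animal number, NmatCpat in red and NmatNpat in blue, and bars for the mean ± SD of 4 lambs. The genotypes overlap in every panel, and single lambs set the wide bars, such as NmatCpat animal 3 in CD3D (4.06) and NmatCpat animal 1 in PTPRC (2.46).

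CD3E is the epsilon chain of the complex. It read 7.34, 6.99, 7.12 and 7.33 in NmatCpat lambs 1 to 4, against 8.05, 7.25, 7.08 and 7.16 in NmatNpat lambs 1 to 4. A single lamb, NmatNpat animal 1, stood above the rest, and the other 7 lay between 6.99 and 7.34. The difference was -0.19 (95% interval -0.76 to 0.39, exact permutation p = 0.60, n = 4 each), and without NmatNpat animal 1 it was 0.03. CD3E was the only one of the 10 genes whose probe set was brighter than the median probe set of the array, and its interval left out a 2-fold change in either direction.

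CD3G, the gamma chain, read 4.12, 5.99, 5.63 and 4.70 in NmatCpat lambs, against 5.60, 6.18, 5.33 and 4.98 in NmatNpat lambs. Both genotypes spread over more than 1 log2 unit, the lowest lamb being NmatCpat animal 1 and the highest NmatNpat animal 2. The difference of -0.41 (interval -1.46 to 0.64, exact permutation p = 0.46, n = 4 each) was smaller than the SD of either genotype, 0.856 in NmatCpat and 0.506 in NmatNpat. Without NmatCpat animal 1 it was -0.08.

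CD3D, the delta chain, was read by 2 probe sets that disagreed. In the sheep assembly ARS-UI_Ramb_v3.0, CD3D and CD3E are neighbours on chromosome 15. The brighter CD3D probe set read 5.51, 5.81, 4.06 and 5.87 in NmatCpat lambs, against 6.33, 5.55, 6.18 and 6.24 in NmatNpat lambs. NmatCpat animal 3 lay more than 1 log2 unit under every other lamb, and NmatNpat animal 2 fell within the range of the NmatCpat lambs. The means were 5.31 ± 0.848 in NmatCpat and 6.07 ± 0.357 in NmatNpat (SD, n = 4 each). The difference was -0.76 (interval -1.74 to 0.22, exact permutation p = 0.086, n = 4 each, where 0.029 is the smallest the 70 arrangements of the lambs allow), and without NmatCpat animal 3 it was -0.34.

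The dimmer CD3D probe set went the other way, at 5.05, 4.22, 4.45 and 3.76 in NmatCpat lambs, against 5.39, 2.42, 3.41 and 3.18 in NmatNpat lambs. All 4 NmatCpat lambs lay above 3 of the NmatNpat lambs, and NmatNpat animal 1 lay above them all. Its difference was 0.77 (interval -0.65 to 2.19, exact permutation p = 0.29, n = 4 each). Without NmatNpat animal 1 the difference was 1.36 and passed both thresholds, with an unadjusted limma P of 0.0086 and an adjusted p of 0.999. The mean of both probe sets differed by 0.01 between the genotypes.

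The gap between the CD3D probe sets, brighter minus dimmer on the log2 scale, was 0.47, 1.58, -0.38 and 2.11 in NmatCpat lambs, against 0.94, 3.13, 2.76 and 3.05 in NmatNpat lambs. It averaged 0.944 ± 1.12 in NmatCpat and 2.47 ± 1.03 in NmatNpat (SD, n = 4 each), and it is given with no test because the pair was known to disagree when it was chosen. Across the 8 lambs the CD3D probe sets had r = -0.11 (exact permutation p = 0.81) and rho = -0.07 (exact permutation p = 0.88). Leaving out NmatCpat animal 3 and NmatNpat animal 1, the lambs farthest from the median, gave r = -0.27.

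**Figure D2:**
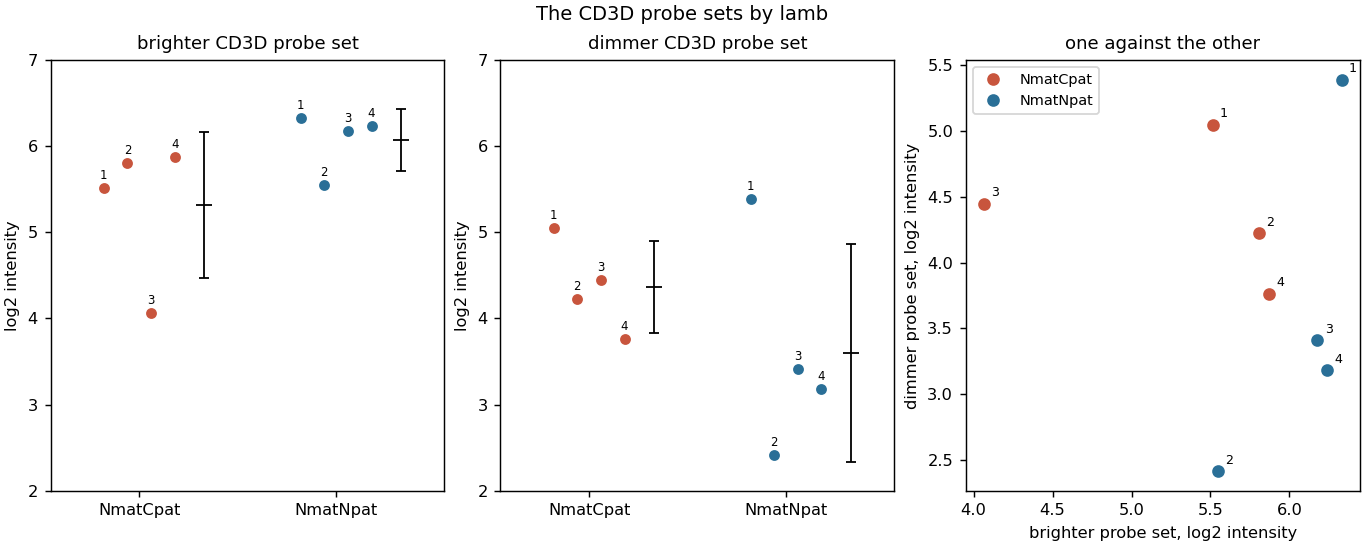
Log2 intensity of the brighter and the dimmer CD3D probe set by lamb (NmatCpat red, NmatNpat blue, numbers are animals, bars are mean ± SD of 4), and one against the other. The genotype means sit in opposite order, 5.31 in NmatCpat and 6.07 in NmatNpat on the brighter probe set, and 4.37 in NmatCpat and 3.60 in NmatNpat on the dimmer one.

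Disagreement of this size between probe sets of 1 gene was uncommon but not confined to CD3D. Among 6466 pairs of probe sets for the same gene, 135 (2.09%) differed in opposite directions with both over 1.5-fold. Where the dimmer probe set was in the dimmest of 4 equal level classes of the array, as for CD3D, the share was 4.50%. The median r of a same-gene pair over the lambs was 0.13, and 38.9% of pairs had r below 0. Of the 8 such pairs among the lymphocyte genes, 7 had r below 0, and no r of the 8 reached an adjusted permutation p under 0.28.

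CD3D was also set against the other T cell genes. The T cell profile of a lamb was the mean of the standardised values of CD3E, CD3G, CD2 and CD5, and it ran from -0.93 to 0.16 in NmatCpat and from -0.72 to 1.48 in NmatNpat. The brighter CD3D probe set followed it with r = 0.14 (exact permutation p = 0.71) and rho = 0.21 (p = 0.62), and the dimmer one with r = 0.15 (exact permutation p = 0.72) and rho = 0.05 (p = 0.93), over 8 lambs. Adjusted over both, the p-values of r were 0.72. Without NmatCpat animal 1 and NmatNpat animal 1, the farthest from the median profile, r was -0.34 for the brighter and -0.30 for the dimmer CD3D probe set, so the sign rested on those lambs. With each genotype centred on its mean, r was -0.06 for the brighter and 0.34 for the dimmer.

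CD2 and CD5 are surface receptors of T cells, CD2 for adhesion and CD5 as a brake on receptor signalling. The brightest CD2 probe set read 5.61, 5.69, 5.65 and 6.21 in NmatCpat lambs, against 6.32, 6.06, 5.29 and 5.86 in NmatNpat lambs. NmatCpat animals 1 to 3 lay close together and animal 4 apart from them. The difference was -0.09 (interval -0.70 to 0.52, exact permutation p = 0.71, n = 4 each), an interval that left out a 2-fold change.

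The other CD2 probe sets did not follow the brightest. The second read 6.17, 5.84, 5.73 and 5.02 in NmatCpat lambs, against 5.21, 4.76, 5.62 and 3.96 in NmatNpat lambs, a difference of 0.80 (interval -0.11 to 1.72, exact permutation p = 0.11, n = 4 each). In each genotype animal 4 was the lowest on it, whereas NmatCpat animal 4 was the highest of its genotype on the brightest probe set. Without both NmatNpat animal 1 and NmatCpat animal 4 it was 1.13 and passed both thresholds, as it did without NmatCpat animal 4 alone (1.03) or NmatNpat animal 3 alone (1.04). The third CD2 probe set, from 1.02 in NmatNpat animal 1 to 3.72 in NmatNpat animal 4, differed by 0.22 (interval -1.11 to 1.54). The mean of the 3 CD2 probe sets differed by 0.31.

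CD5 read 2.85, 3.64, 4.08 and 4.01 in NmatCpat lambs, against 4.96, 4.14, 3.37 and 3.36 in NmatNpat lambs. NmatNpat animal 1 was again the highest lamb, while NmatNpat animals 3 and 4 lay below 3 of the 4 NmatCpat lambs. The difference was -0.31 (interval -1.32 to 0.69, exact permutation p = 0.60, n = 4 each), and 0.02 without NmatNpat animal 1.

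CD4 marks helper T cells, and in some species macrophages also carry it. Its brightest probe set read 6.11, 6.005, 5.79 and 5.49 in NmatCpat lambs, against 5.48, 6.45, 6.33 and 6.09 in NmatNpat lambs. NmatNpat animal 1, high for CD3D, CD3E, CD5 and the brightest CD2 probe set, was here the lowest of all 8, though almost level with NmatCpat animal 4. The difference was -0.24 (interval -0.84 to 0.36, exact permutation p = 0.40, n = 4 each), and -0.44 without NmatNpat animal 1. The second CD4 probe set read 2.75, 5.87, 4.88 and 4.97 in NmatCpat lambs, against 5.94, 4.45, 5.18 and 5.46 in NmatNpat lambs, with a difference of -0.64 (interval -2.15 to 0.87). On this probe set NmatNpat animal 1 was the highest of all 8 lambs, so its place in CD4 depended on the probe set. NmatCpat animal 1 carried the difference, which was -0.02 without NmatCpat animal 1.

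CD8A, a chain of the co-receptor of cytotoxic T cells, read 4.86, 4.71, 3.68 and 5.52 in NmatCpat lambs, against 5.14, 3.83, 5.69 and 5.17 in NmatNpat lambs. Each genotype had 1 lamb below 4 and the rest between 4.71 and 5.69. The difference was -0.26 (interval -1.41 to 0.89, exact permutation p = 0.60, n = 4 each). CD8B, the other chain, named after its values were seen, differed by 0.03 (interval -0.99 to 1.04).

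CD79A, the signalling chain of the B cell receptor, was in the dimmest of the 4 level classes, where lambs of the same genotype typically scattered with an SD of 1.07 (log2, median over probe sets). It read 2.46, 2.40, 1.75 and 1.83 in NmatCpat lambs, against 2.73, 2.25, 2.28 and 2.995 in NmatNpat lambs. Its own SD was 0.370 in NmatCpat and 0.361 in NmatNpat (n = 4 each). NmatCpat animals 3 and 4 were the lowest and NmatNpat animal 4 the highest. The difference was -0.45 (interval -1.06 to 0.15, exact permutation p = 0.17, n = 4 each), and -0.11 when an offset of 16 was added before the log.

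PTPRC (CD45) is the membrane phosphatase of all leukocytes. Its brightest probe set read 2.46, 5.28, 4.91 and 5.78 in NmatCpat lambs, against 5.44, 5.72, 4.12 and 5.51 in NmatNpat lambs. NmatCpat animal 1 lay more than 1 log2 unit under the next lamb, and NmatCpat animal 4 was the highest of all. The difference was -0.59 (interval -2.28 to 1.10, exact permutation p = 0.57, n = 4 each), and 0.13 without NmatCpat animal 1. Of the other PTPRC probe sets, both in the dimmest level class, the second differed by 0.28 (interval -0.72 to 1.28) and the third by -0.11 (interval -1.63 to 1.41). On the second, NmatCpat animal 1 was again the lowest lamb (2.995) and NmatCpat animal 4 the highest (5.21). The third had them the other way round, with NmatCpat animal 1 the highest (4.34) and NmatCpat animal 4 the lowest (1.09).

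CCL5 is a chemokine released by activated T cells and natural killer cells that draws further leukocytes in. It read 4.85, 4.66, 3.60 and 5.47 in NmatCpat lambs, against 3.64, 5.55, 4.94 and 4.95 in NmatNpat lambs. The lowest lamb of each genotype was near 3.6. The difference was -0.13 (interval -1.30 to 1.04, exact permutation p = 0.69, n = 4 each), and without NmatCpat animal 3 it was 0.22.

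**Figure D3:**
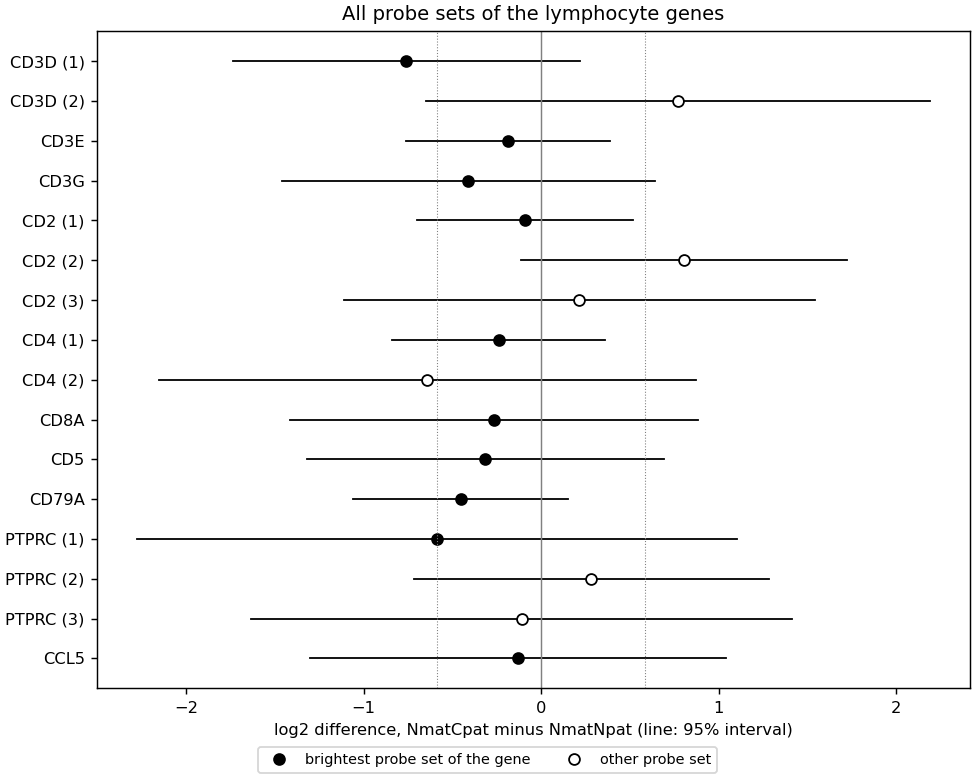
Log2 difference, NmatCpat minus NmatNpat (horizontal axis), of all 16 probe sets with 95% intervals from limma, where filled points are the brightest probe set of a gene, open points the others and dotted lines a 1.5-fold change. Every interval crosses 0, all 10 filled points lie below it, and open points of CD3D, CD2 and PTPRC lie above it.

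The direction shared by the 10 brightest probe sets was not shared by the lambs. Averaged over the 10 genes, lambs 1 to 4 deviated from the 8-lamb mean by -0.451, 0.0494, -0.439 and 0.154 log2 units in NmatCpat, against 0.302, 0.229, -0.00761 and 0.163 in NmatNpat. NmatCpat animals 2 and 4 thus lay above NmatNpat animal 3, and the low mean of NmatCpat came from animals 1 and 3. For NmatCpat animal 1 a few genes weighed most, PTPRC at -2.44, CD3G at -1.20 and CD5 at -0.95, while 5 of its 10 genes lay above the 8-lamb mean. NmatCpat animal 3 had 3 of 10 genes above it. NmatCpat animal 3 was lowest in CD3D, CD8A, CD79A and CCL5, and NmatCpat animal 1 in CD3G, CD5 and PTPRC. Of the 10 genes, 7 stayed below 0 without NmatNpat animal 1, 8 without NmatCpat animal 3, and 9 without NmatCpat animal 1 or without NmatNpat animal 2. With the mean of all probe sets standing for a gene, CD3D and CD2 moved to above 0.

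**Figure D4:**
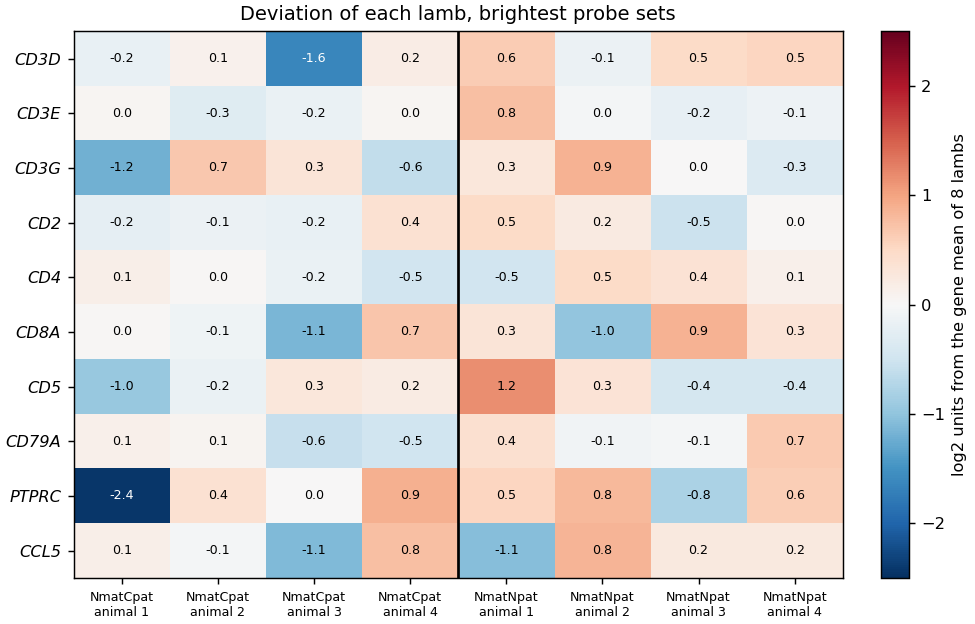
Deviation of each lamb from the gene's mean over the 8 lambs, in log2 units, for the brightest probe set of the 10 genes (rows) and the lambs (columns, NmatCpat left of the line, NmatNpat right). No lamb is low or high in every row. NmatNpat animal 1 is the highest in CD3D, CD3E, CD2 and CD5 but, almost level with NmatCpat animal 4, the lowest in CD4. On probe sets not shown here, NmatNpat animal 1 was the highest on the second of CD4 and the lowest on the third of CD2.

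The genes of the T cell profile varied together only in part. Over the 8 lambs CD3E and CD2 had r = 0.69 (exact permutation p = 0.042, adjusted over 6 pairs 0.13) and rho = 0.55 (p = 0.17). CD2 and CD5 had r = 0.73 (exact permutation p = 0.039, adjusted 0.13) and rho = 0.67 (p = 0.083). Without the 2 lambs farthest from the median, r was 0.61 for CD3E with CD2 and 0.55 for CD2 with CD5. CD3E and CD5 had r = 0.66 (exact permutation p = 0.099, adjusted 0.20) and rho = 0.24 (p = 0.58), with r = -0.09 without the 2 farthest lambs. CD3E and CD3G, chains of the same complex, had r = -0.08 (exact permutation p = 0.86) and rho = -0.43 (p = 0.30). The 5 other genes were set against the profile on their brightest probe sets, and 3 of them had r below 0. CD4 had r = -0.50 (exact permutation p = 0.21, adjusted 0.52), CCL5 -0.33, CD8A -0.18 and CD79A 0.06. PTPRC had the highest r, 0.66 (exact permutation p = 0.086, adjusted 0.43), with rho = 0.69 (p = 0.069) and r = 0.76 without the 2 farthest lambs. The brightest PTPRC probe set had r = -0.69 with the third (exact permutation p = 0.071, adjusted 0.28), so the likeness is not one of all PTPRC probe sets.

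Of 6332 genes read above the median level, those most like the T cell profile over the 8 lambs were AGO3 (r = 0.95), LRP11 (r = 0.95), PPP2CA (r = 0.95), RETREG2 (r = 0.93) and NRIP3 (r = 0.90). These are the highest of many and carry no test. LRP11 read 6.44, 7.24, 7.04 and 7.39 in NmatCpat lambs, against 8.33, 7.56, 7.03 and 7.23 in NmatNpat lambs. As in CD3E, NmatNpat animal 1 was its highest lamb, and this was so for all 5 genes.

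The genes that act below and beside the CD3 chains were described as lists, each by its brightest probe sets. On that measure 266 of the 9155 genes of the whole array passed both thresholds, so single called genes in a list are not unusual. Of 33 genes of the T cell receptor complex and its proximal signalling, 19 were measured, 7 above 0 and 12 below, with a median of -0.13, and 1 passed both thresholds. That median changed sign without NmatCpat animal 2 (0.09), and it was -0.29 without NmatNpat animal 4. That gene was CD6, a T cell surface receptor related to CD5. CD6 read 4.31, 4.66, 5.19 and 4.88 in NmatCpat lambs, against 6.13, 5.38, 6.60 and 6.47 in NmatNpat lambs. Every NmatCpat lamb lay below every NmatNpat lamb, as was so for 1.32% of all probe sets. The difference was -1.38 (SE 0.32, interval -2.12 to -0.65, unadjusted limma P = 0.0025, adjusted p = 0.98, exact permutation p = 0.029), and it passed both thresholds in all 18 alternatives that measured it, with adjusted p from 0.33 to 0.99. The other CD6 probe set went the opposite way, at 4.17, 4.24, 3.40 and 6.62 in NmatCpat lambs, against 4.76, 3.53, 3.96 and 3.89 in NmatNpat lambs, and its difference of 0.57 became -0.10 without NmatCpat animal 4. With the mean of all probe sets standing for each gene, 0 of the 19 genes were called.

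Other signalling genes next to the CD3 chains are named here for their role, after their values were seen, and none of them passed. CD247, the zeta chain, differed by 0.01 (interval -1.04 to 1.06), the adaptor LAT by 0.03 (interval -0.43 to 0.50), the kinase LCK by -0.13 (interval -1.11 to 0.84) and the kinase ZAP70 by -0.17 (interval -2.30 to 1.95). The adaptor LCP2 differed by -0.95 (interval -2.08 to 0.18), the kinase PRKCQ by -0.70 (interval -2.64 to 1.24) and the kinase FYN by -0.36 (interval -0.72 to 0.01). NmatCpat animal 2 was the lowest lamb for both LCP2 (3.41) and PRKCQ (1.01). Of the same list, 12 genes lay below 0 and 7 above. Among those above were CD28 at 0.63 (interval -1.04 to 2.29), TXK at 0.39, SIT1 at 0.29 and CSK at 0.25. CD247 read 7.11 to 7.45 in NmatCpat lambs, against 8.62 in NmatNpat animal 1 and 6.31 to 7.53 in the other NmatNpat lambs.

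Among transcription factors, homing receptors and cytokine receptors of T cells, 16 of 29 genes were measured, 6 above 0 and 10 below, with a median of -0.11, which was 0.03 without NmatNpat animal 1. LEF1, a transcription factor of the Wnt pathway that naive T cells also use, passed both thresholds. It read 5.77, 5.68, 5.58 and 6.17 in NmatCpat lambs, against 7.21, 6.43, 6.23 and 6.79 in NmatNpat lambs. The genotypes did not overlap, as was so in this direction for 1.32% of all probe sets, with NmatCpat animal 4 just under NmatNpat animal 3. The difference was -0.86 (SE 0.26, interval -1.46 to -0.27, unadjusted limma P = 0.010, adjusted p = 0.98, exact permutation p = 0.029), and it passed in all 19 alternatives, with adjusted p from 0.91 to 0.999. LEF1 is also made outside T cells. Its relative TCF7, named after its values were seen, differed by 0.46 (interval -0.74 to 1.65).

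Of the 16 cytotoxic and natural killer genes measured, 11 lay above 0 and 5 below. Their median of 0.19 was 0.02 without NmatNpat animal 4, and 0 to 3 of them were called over the alternatives, 3 of them without NmatNpat animal 2. GNLY, the granule protein granulysin, passed both thresholds. It read 5.65, 4.88, 5.37 and 5.94 in NmatCpat lambs, against 4.16, 5.24, 3.83 and 4.85 in NmatNpat lambs. NmatNpat animal 2 lay within the range of the NmatCpat lambs. The difference of 0.94 (SE 0.37, unadjusted limma P = 0.034, adjusted p = 0.98, exact permutation p = 0.057) passed in 9 of 18 alternatives. PRF1, the pore protein perforin, named after its values were seen, read 6.09, 6.21, 5.98 and 6.12 in NmatCpat lambs, against 5.12, 2.92, 5.95 and 5.23 in NmatNpat lambs. The genotypes did not overlap, as was so in this direction for 1.41% of all probe sets. NmatNpat animal 3 lay just under the lowest NmatCpat lamb, and the difference of 1.30 (interval -0.06 to 2.65) did not pass. GZMB, the granule protease granzyme B, differed by -1.06 (interval -2.63 to 0.51) and NKG7 by 0.03 (interval -0.37 to 0.43), also named after their values were seen.

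**Figure D5:**
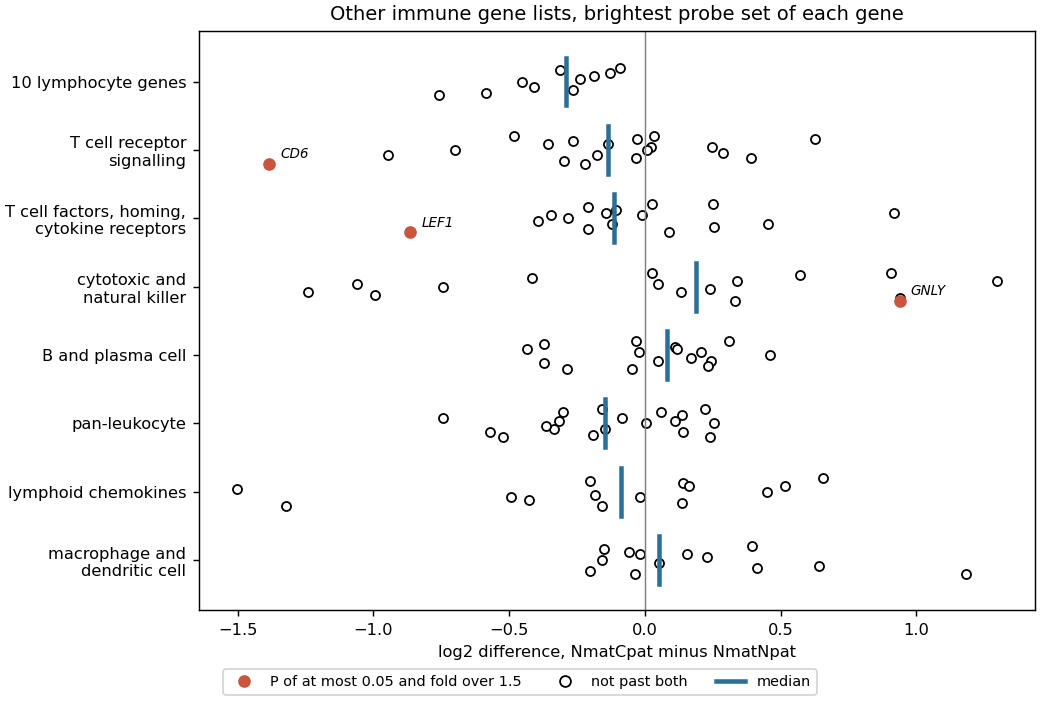
Log2 difference, NmatCpat minus NmatNpat, of the brightest probe set of each measured gene in the 10 lymphocyte genes and in 7 immune lists, with filled points past P of at most 0.05 and a fold over 1.5, and bars at the list medians. Only CD6, LEF1 and GNLY are filled, where 266 of 9155 genes over the whole array were called on the brightest probe set. The list medians lie between -0.29 and 0.19.

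No gene of the B cell and plasma cell list passed both thresholds, with 9 of the 16 measured above 0, 7 below and a median of 0.08, which was -0.12 without NmatNpat animal 3. CR2, the complement receptor of B cells, had its smallest P and differed by -0.29 (exact permutation p = 0.31), or -0.10 without NmatNpat animal 4. The other CR2 probe set differed by 0.09. IGHM, the heavy chain of IgM, and MS4A1 (CD20), named after their values were seen, differed by -0.03 and -0.02. IGHM read 6.70 to 7.35 in NmatCpat lambs, against 8.48 in NmatNpat animal 1 and 6.15 to 6.78 in the other NmatNpat lambs. Of 19 pan-leukocyte genes 8 lay above 0 and 11 below, with a median of -0.15, and none passed both thresholds. ARHGAP15, a leukocyte regulator of Rac, came closest with a difference of -0.52 (interval -0.98 to -0.07, unadjusted limma P = 0.029, exact permutation p = 0.057), which is under 1.5-fold. Without NmatNpat animal 1 and NmatCpat animal 4 it was -0.72 and passed both thresholds, and it ran from -0.63 to -0.44 with a single lamb left out.

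Of the 14 lymphoid chemokines measured, 6 lay above 0 and 8 below, with a median of -0.09 and none past both thresholds. CCL22, a macrophage and dendritic cell chemokine for T cells, had the smallest P, with a difference of -1.32 (interval -2.80 to 0.16, exact permutation p = 0.14). Without NmatNpat animal 3 it was -1.81 and passed both thresholds, and with an offset of 16 it was -0.57. Of 13 macrophage and dendritic cell markers 7 lay above 0 and 6 below, with a median of 0.05. That median was -0.44 without NmatNpat animal 1 and NmatCpat animal 4, and 0.27 without NmatNpat animal 3. Of these 13 markers 7 were highest in NmatCpat animal 4, and NmatNpat animal 1 had the lowest mean deviation over them (-0.96). Leaving out that pair therefore lowers the median. ITGAM, an integrin chain of myeloid cells, had the smallest P, with a difference of 1.18 (interval -1.03 to 3.40). Without NmatNpat animal 4 it was 1.94 and passed both thresholds, and the other ITGAM probe set differed by -0.34.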

How the data were processed

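Perirenal fat of 8 lambs was profiled on Affymetrix Bovine Genome arrays. The authors made the deposited intensity values with MAS5 (version not given in the sources used). They are linear, and the quantile normalization that the methods describe is not seen in them, so log2 was taken here and the 8 arrays were quantile-normalized. No 2 arrays shared more than 0.34% of their values.

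After 112 control probe sets were left out, 24016 entered the moderated linear model of limma 3.58.1 (lmFit and eBayes, R 4.3.3) with genotype as its single term, in a script tested on simulated data. P values were adjusted over all of them (Benjamini-Hochberg). Called genes had P of at most 0.05 and a fold over 1.5, the study's thresholds. Intervals are at 95% from moderated standard errors. Permutation tests were two-sided and exact (SciPy 1.17.1). The labels do not say how the lambs were related, and the number of arrays limits the precision.

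Symbols came from the platform annotation, which is old: 13292 probe sets had 1 symbol, 86 several and 10638 none. The members and lists were chosen with earlier results of these data known. Named genes were the members, fat cell markers and the 5 genes most like the T cell profile. The gene with the smallest p and up to 3 called were also named in each of the immune, red blood cell and neuron lists. Alternatives covered the variance model, array weights, normalization, an offset, filters, animal number as a block, probe set means, thresholds and lambs left out.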

Additional observations from a re-analysis of the deposited data

Results flagged for a closer look

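In 58 sets of 4 lambs (1 genotype, 1 probe set), 3 held a lamb whose gap to the nearest other exceeded Dixon's critical value, where chance gives about 1 in 20. On the brightest CD2 probe set NmatCpat animal 4 read 6.21, and the other NmatCpat lambs 5.61 to 5.69. On the third PTPRC probe set NmatNpat animal 1 read 2.03, and the other NmatNpat lambs 3.17 to 3.35. ELAVL4, an RNA-binding protein of neurons, read 9.89 in NmatNpat animal 1 and 3.33 to 3.93 in the other NmatNpat lambs.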

How the results depend on the processing

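On the probe set standing for it, none of the 10 lymphocyte genes passed both thresholds in any of 21 alternatives, and the lowest adjusted p of any of their probe sets was 0.84. Over the whole array 943 probe sets passed both, 626 without moderated variances and 244 when dim probe sets were left out (those below the median level). The count with an adjusted p under 0.05 was 0, and 1 with a trended robust prior, with an offset of 16 or without dim probe sets, and 0 to 2 with a lamb left out (2 without NmatNpat animal 2). Without dim probe sets only CD3E was left, so 1 of 1 gene lay below 0, and 7 to 10 of the 10 did with a lamb left out. Animal numbers did not pair the lambs (correlations of deviations from -0.013 to 0.048), and with the number as a replicate block 1124 probe sets passed both, among them the second CD2 probe set at 0.80 (P = 0.023, limma). That probe set gave 1.13 without NmatNpat animal 1 and NmatCpat animal 4, and 0.50 to 1.04 with a lamb left out. Without that pair of lambs the dimmer CD3D probe set gave 1.57, the third CD2 probe set -0.32, the second PTPRC probe set -0.21, the third PTPRC probe set 0.17 and CCL5 -0.78. An offset of 16 gave the third PTPRC probe set 0.039. Means over all probe sets gave CD3D 0.0058 and CD2 0.31. The r of CD3D with the T cell profile turned to -0.059 (brighter, genotypes centred), -0.34 (brighter) and -0.30 (dimmer, without the 2 farthest lambs). The cause was not tested.

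With a lamb left out, differences ran from -0.94 to -0.34 (brighter CD3D), 0.38 to 1.36 (dimmer CD3D), -0.29 to 0.034 (CD3E), -0.29 to 0.055 (brightest CD2), -0.16 to 0.73 (the third CD2 probe set), -0.64 to 0.073 (CD8A), -0.51 to 0.021 (CD5), -0.50 to 0.22 (CCL5), -0.10 to 0.97 (dimmer CD6), and for the PTPRC probe sets from -0.98 to 0.13, -0.085 to 0.65 and -0.61 to 0.48. Of the 16 probe sets 15 lay below the median level. Over 4 equal level classes, dimmest first, the typical SD among lambs of a genotype was 1.07, 0.683, 0.346 and 0.233 log2 units.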

Other observations

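Red blood cell genes had 5 of 7 measured above 0, and AHSP, the chaperone of alpha globin in red cell precursors, read 5.56, 6.70, 6.08 and 5.63 in NmatCpat lambs, against 1.91, 4.89, 3.44 and 4.84 in NmatNpat lambs. The genotypes did not overlap, as was so in this direction for 1.41% of all probe sets. The AHSP difference was 2.22 (SE 0.67, unadjusted limma P = 0.011, adjusted p = 0.98, exact permutation p = 0.029), and 1.32 with an offset of 16. HBM, a globin of the alpha cluster, differed by 0.90 (unadjusted limma P = 0.049, adjusted p = 0.98, exact permutation p = 0.086). HBA, an alpha globin, differed by -0.34 and ALAS2, the first enzyme of haem synthesis in red cells, by -0.09, both named after their values were seen. HBA was the only red blood cell gene above the median level. CCL21, the chemokine of lymphatic vessels and lymph nodes that draws T cells, named after its values were seen, read 8.91, 8.78, 9.37 and 9.56 in NmatCpat lambs, against 9.13, 8.46, 8.40 and 8.56 in NmatNpat lambs. Its difference was 0.52 (interval -0.07 to 1.11), and NmatNpat animal 1 alone lay within the range of the NmatCpat lambs.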
